A study of Zea mays with 10 samples.

Results

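PIP2-1 (gene ID LOC541888 in RefSeq, also listed as pip2e and ZmPIP2-1) is a plasma membrane aquaporin gene of maize. Its members here were all cDNA clones that the platform annotation names PIP2-1 or that carry a RefSeq synonym of it: 6 of the 5400 clones on the arrays, printed as 18 of 16200 spots, with 3 successive spots averaged to 1 clone and the clones numbered 1 to 6 in row order. It was 1 of 213 named genes, and 811 clones carried a name. PIP2-1 was chosen with its values known: its mean ratio on the B73 arrays was below 0 in all 6 clones, and the additive and dominance values contain that mean. Those values are therefore given as a description, without a test.

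Aquaporins are membrane channels through which water, and in some members small uncharged solutes, crosses a membrane along its gradient. The plasma membrane intrinsic proteins fall into a PIP1 and a PIP2 group, and in maize PIP1 proteins depend on PIP2 partners to reach the plasma membrane. PIP2 proteins of maize, PIP2-1 among them, raise water permeability when made in frog oocytes, and PIP2-1 has been studied mainly in roots and in growing leaves.

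The series set immature ears of the inbred lines H99 and B73 against their F1 hybrid, B73xH99, on 10 two-colour cDNA arrays, 5 per inbred, with the hybrid in the other channel each time. All plants were field-grown, ears were taken at stage V15 without silks and ear apexes, and each genotype was a bulk of 10 individuals. In each inbred's set, the hybrid was labelled with Cy5 on arrays 4 and 5 (reversed) and with Cy3 on arrays 1 to 3 (forward). Every labelling began with 1 microgram of poly(A) RNA from the same pool per genotype, itself drawn from at least 3 extractions, so SDs, SEs and p-values measure the spread between labellings and hybridisations and not between plants.

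All values are the deposited log2 ratios, with 0 for equal channels. L2 is the mean over the 5 H99 arrays and L1 the mean over the 5 B73 arrays. The additive value a is (L2 - L1)/2 and the dominance value d is (L1 + L2)/2, as the design text defines them. That text sets the hybrid over the inbred, under which a negative L1 would stand for less signal from the hybrid than from B73. The files do not settle this direction, nor whether reversed arrays had been turned before deposit, so signs are given as deposited and no genotype is called higher. Over clones, forward and reversed H99 arrays correlated at -0.169 to 0.218, and forward and reversed B73 arrays at 0.373 to 0.538. Within an orientation, H99 arrays correlated at 0.333 to 0.62 and B73 arrays at 0.593 to 0.815. SDs over the 5 arrays of an inbred, and the SEs of L1, L2, a and d, therefore also hold the difference between orientations. Between 0.253% and 2.31% of spots on an array had no value. Ratios carry no level, so the amount of PIP2-1 transcript, and the presence of ear markers, could not be checked, and in a bulk organ fewer cells of a type and less RNA per cell cannot be told apart.

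Averaged over its 6 clones, PIP2-1 lay close to 0 on the H99 arrays and below 0 on every B73 array. On the H99 arrays the mean of the 6 clones was 0.021 and -0.030 in the reversed and -0.082, -0.040 and -0.024 in the forward orientation. On the B73 arrays it was -0.26 and -0.14 in the reversed and -0.35, -0.32 and -0.39 in the forward orientation. The 5 H99 values and the 5 B73 values did not overlap, a separation that rests in part on the B73 values PIP2-1 was chosen for. How many other gene means were separated in this way was not computed. In order, B73 array 3 was lowest, followed by B73 arrays 1, 2, 4 and 5, and then by the H99 arrays. The H99 values spread over 0.10 log2 units between the lowest and the highest array, and the B73 values over 0.24. Single clones spread more widely, with an SD between the 6 clones of 0.074 to 0.351 on an array. The B73 arrays were also wider over all clones, with SDs of 0.21 to 0.35, against 0.158 to 0.212 for the H99 arrays. With arrays scaled to a common spread, L1 of the gene mean was -0.23, L2 -0.036 and a 0.095.

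**Figure D1:**
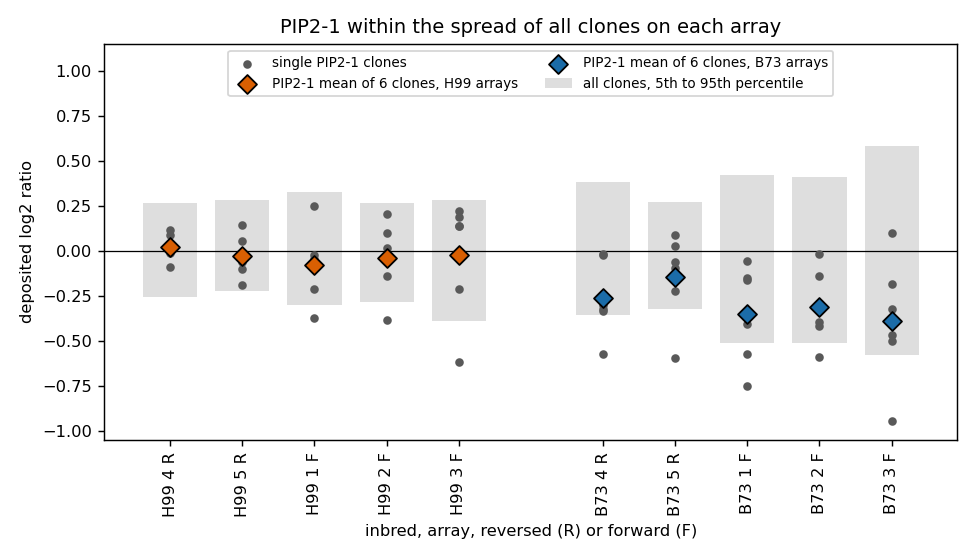
Deposited log2 ratio (vertical axis) of PIP2-1 on each array (horizontal axis, R for reversed and F for forward), with diamonds for the mean of 6 clones, dots for single clones and grey bars for the 5th to 95th percentile of all clones. The H99 means lie between -0.082 and 0.021 and the B73 means between -0.39 and -0.14. The grey bars show single clones, which vary more than a mean of 6 clones does.

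L2 of the gene was -0.031 ± 0.037 (SD, n = 5 arrays) and L1 was -0.29 ± 0.095 (SD, n = 5 arrays). From these, a was 0.13 with an SE of 0.026 and d was -0.16 with an SE of 0.026. Set clone by clone against all clones, 31.8%, 72.2%, 52.7%, 29.0%, 61.8% and 5.11% had a lower L2 than PIP2-1 clones 1 to 6. For L1 the shares below clones 1 to 6 were 2.33%, 7.13%, 23.3%, 37.8%, 21.8% and 1.85%. Clones 1 and 6 were thus near the low end of L1, and clone 4 was well inside the spread. Among the 36 genes with at least 5 clones, PIP2-1 was the 1 gene whose clones all had an L1 of the same sign, and 0 of the others had a lower mean L1. Both counts for L1 repeat what the gene was chosen for. For L2, 8 of the 36 genes had a lower mean, and in 3 genes, CDPK, PIP1-3 and gpc2, all clones had the same sign.

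The 6 clones shared the sign of L1 and differed in its size. Of the 30 values per inbred, 16 were below 0 on the H99 arrays and 27 on the B73 arrays. L2 was below 0 in 3 clones, and L1 was below 0 and a above 0 in all 6. With the reversed B73 arrays turned in sign, L1 of clone 4 came to 0.090 and that of the other 5 clones stayed below 0. For no clone did every H99 value lie apart from every B73 value, so that 0 of 6 clones were separated where 11.8% of all clones were. The gene mean over the 6 clones was separated. A mean of 6 clones varies less than a single clone, so the 11.8% is no measure for it. The share of gene means separated was not computed.

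Clone 1 was among the lowest against B73 and also the most variable there. On the H99 arrays it read -0.013 and 0.055 reversed and -0.38, -0.041 and 0.14 forward. On the B73 arrays it read -0.33 and 0.025 reversed and -0.58, -0.59 and -0.95 forward. The value on B73 array 3 was below that of all but 0.299% of clones, while B73 array 5 gave a value above 58.0% of them, and H99 array 1 overlapped the B73 values. Its L2 was -0.047 ± 0.20 and its L1 -0.49 ± 0.36 (SD, n = 5 arrays each).

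Clone 2 was likewise lowest on the forward B73 arrays, over a smaller range. On the H99 arrays its values were 0.12 and -0.024 reversed and -0.047, 0.018 and 0.22 forward. On the B73 arrays they were -0.017 and -0.23 reversed and -0.41, -0.42 and -0.50 forward. All 5 B73 values were negative, but the least negative of them lay above the lowest H99 values. L2 was 0.056 ± 0.11 and L1 was -0.31 ± 0.20 (SD, n = 5 arrays each).

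Clone 3 was positive on 1 reversed B73 array and negative on the forward ones. It gave 0.015 and -0.063 on the reversed H99 arrays and -0.22, 0.099 and 0.19 on the forward ones. Against B73 it gave -0.022 and 0.090 reversed and -0.15, -0.39 and -0.33 forward. H99 array 1 was lower than 3 of the B73 arrays, so the inbreds overlapped. The means were 0.0049 ± 0.15 for L2 and -0.16 ± 0.20 for L1 (SD, n = 5 arrays each).

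Clone 4 did not follow the first 3 clones. Its H99 values were 0.0080 and 0.14 reversed and -0.076, -0.14 and -0.21 forward. Its B73 values were -0.33 and -0.096 reversed and -0.057, -0.017 and 0.10 forward. In this clone the reversed arrays were the high ones for H99 and the low ones for B73, and the inbreds overlapped over most of their range. L2 was -0.055 ± 0.14, and L1, at -0.079 ± 0.16 (SD, n = 5 arrays each), was nearest to 0 of the 6 clones.

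Clone 5 had the smallest spread against B73. On the H99 arrays it gave -0.090 and -0.099 reversed and -0.022, 0.21 and 0.14 forward. On the B73 arrays it gave -0.30 and -0.064 reversed and -0.17, -0.14 and -0.19 forward. All 5 B73 values were negative, with the highest of them above both reversed H99 values. L2 was 0.026 ± 0.14 and L1 was -0.17 ± 0.087 (SD, n = 5 arrays each).

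Clone 6 had the lowest L1 of the 6 clones as deposited and the widest range on the H99 arrays. Against H99 it read 0.089 and -0.19 reversed and 0.25, -0.38 and -0.62 forward. Against B73 it read -0.58 and -0.60 reversed and -0.75, -0.33 and -0.47 forward, the last of these from 2 spots because the third had no value. H99 array 3 was lower than 4 of the 5 B73 values, and H99 array 1 was the highest value of any PIP2-1 clone. Its L2 was -0.17 ± 0.35 and its L1 was -0.54 ± 0.16 (SD, n = 5 arrays each). With the reversed B73 arrays turned, its L1 was -0.075.

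**Figure D2:**
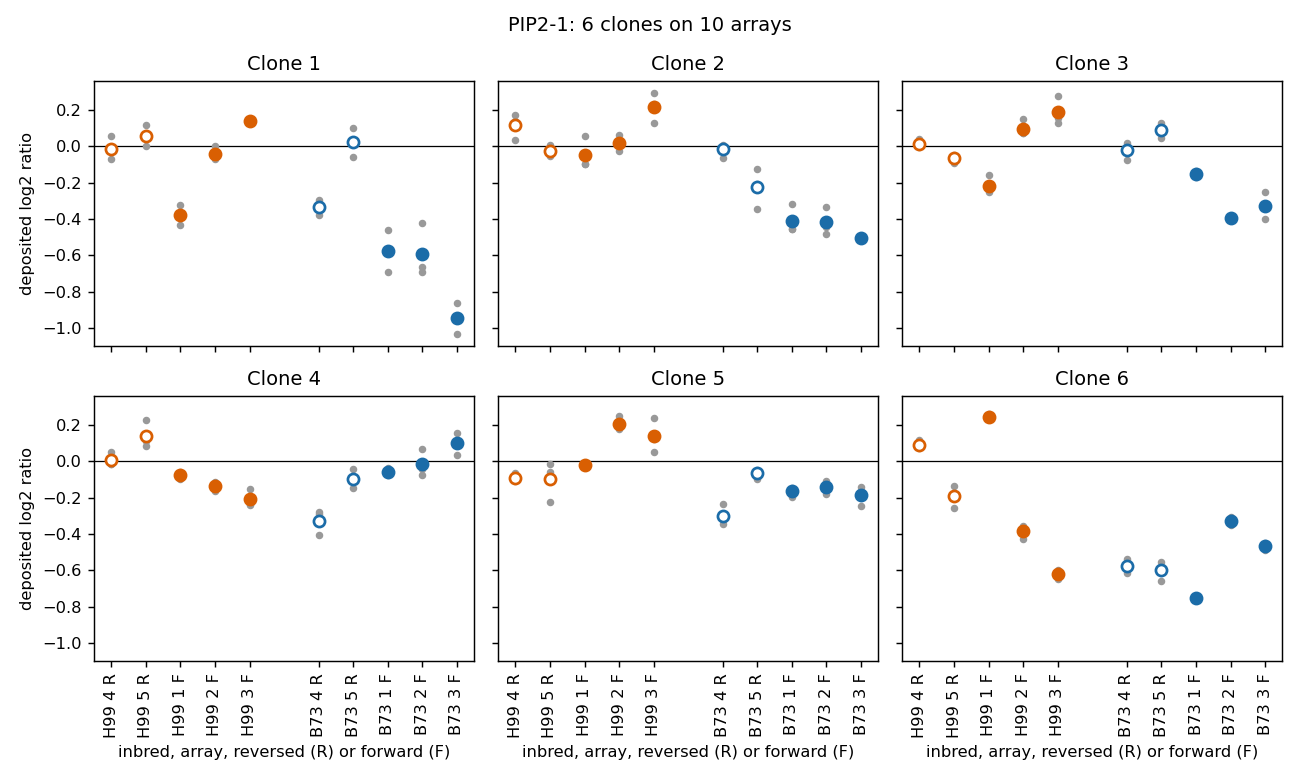
Deposited log2 ratio (vertical axis) of the 6 PIP2-1 clones on the 10 arrays (horizontal axis). Grey dots are single spots and circles the mean of 3 spots, orange for H99 and blue for B73 arrays, open for reversed (R) and filled for forward (F); clones 1 to 3 are lowest on the forward B73 arrays and clone 6 is low on all 5 B73 arrays.

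Ordered by L1 as deposited, the clones ran 6, 1, 2, 5, 3 and 4, at -0.54, -0.49, -0.31, -0.17, -0.16 and -0.079. Each differed from its neighbour by less than the larger of their SDs between arrays. The order depended on the orientation: with the reversed B73 arrays turned, it was 1, 2, 3, 6, 5 and 4, at -0.36, -0.22, -0.19, -0.075, -0.025 and 0.090. By a, clone 1 came first at 0.22, and clone 4 came last at 0.012. The spots of a clone agreed far better than the clones did: the SD between the 3 spots of a PIP2-1 clone was 0.0066 to 0.147 on an array and 0.0586 pooled, against 0.0880 pooled over all clones.

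Over the 10 arrays, clones 1, 2 and 3 moved together, with Pearson r of 0.84, 0.87 and 0.77 for their 3 pairs, and clone 5 correlated with them at 0.57, 0.52 and 0.54. Clone 4 correlated with clones 1, 2, 3 and 5 at -0.25, -0.41, -0.49 and -0.11. Clone 6 correlated with the others at -0.21 to 0.36. In all, 6 of 15 clone pairs had r over 0.5 and 5 had r below 0. These points share RNA pools and the contrast between inbreds, and the values are a description. A cDNA spot can bind transcripts of near-identical PIP genes, and whether the clones differ in this was not tested.

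The mean over the H99 arrays alone was not what PIP2-1 was chosen for, and it was tested with limma over 5357 clones with Benjamini-Hochberg adjustment. L2 was called in 0 of 6 PIP2-1 clones at an adjusted p under 0.05, against 1.23% of all tested clones. At an unadjusted p under 0.05 the count was also 0, and it was 0 with each clone's own variance in place of the moderated one. Adjusted p ran from 0.411 for clone 6, the clone farthest from 0, to 0.985 for clone 3. In the same fit over the means of the 213 named genes, added after the values were seen, L2 of PIP2-1 was -0.031 with an SE of 0.037 and an adjusted p of 0.720 (limma), where 2.82% of genes were called. A departure from 0 against H99 was thus not detectable at this number of arrays, with values below 0 on 4 of 5 arrays. These SEs draw on the spread of the B73 arrays too, and a fit to the H99 arrays alone was not run.

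Dye orientation was swapped on 2 of the 5 arrays of each inbred, which lets PIP2-1 be compared between orientations. In clones 1, 2 and 3 the reversed B73 arrays were higher than the forward ones, by 0.55 (SE 0.15), 0.32 (SE 0.11) and 0.33 (SE 0.12). Clone 1, with means of -0.15 on the reversed and -0.71 on the forward B73 arrays, was called (limma, adjusted p = 0.0259). Clones 2 and 3 were not, with adjusted p of 0.0546 and 0.0740. Clones 4, 5 and 6 had differences of -0.22, -0.020 and -0.071, with adjusted p between 0.155 and 0.920. The call of 1 clone in 6 stands beside 15.4% of all clones, a share close to the background. By non-overlap of reversed and forward arrays, 4 of 6 clones were separated, against 47.2% of all clones.

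The single call of clone 1 rested on few arrays. Without B73 array 3 or B73 array 5, 0 PIP2-1 clones were called for this difference, while 3 were called without H99 array 1 and 2 without H99 array 3. Both inbreds shared 1 estimate of the spread, so leaving out an H99 array changed the calls but not the B73 difference itself. The count was also 0 with arrays scaled to one spread, after quantile normalization and with each clone's own variance, and 4 if the reversed B73 arrays were turned in sign. The share of all clones called was not computed for these settings.

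On the H99 arrays the reversed-minus-forward difference was called in 0 of 6 clones with limma, 0 at an unadjusted p under 0.05, and 0 with each clone's own variance, against 4.31% of all clones. The differences were 0.11, -0.018, -0.048, 0.22, -0.20 and 0.20 for clones 1 to 6. Reversed and forward H99 arrays did not overlap in 2 clones, 4 and 5, which ran in opposite directions. Across all clones 41.3% were separated in this way.

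For the gene mean, the reversed arrays were higher than the forward ones by 0.044 (SE 0.058) in the H99 set and by 0.15 (SE 0.058) in the B73 set. In the fit over gene means these gave limma adjusted p of 0.687 and 0.118, where 11.3% and 10.8% of genes were called. The orientation effect of the H99 set minus that of the B73 set was -0.10 for the gene mean, with a limma adjusted p of 0.425. For single clones this difference was called by limma in 0 of 6, against 3.92% of all clones, though 3 had an unadjusted p under 0.05. The orientation effects of the sets were therefore not shown to differ.

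**Figure D3:**
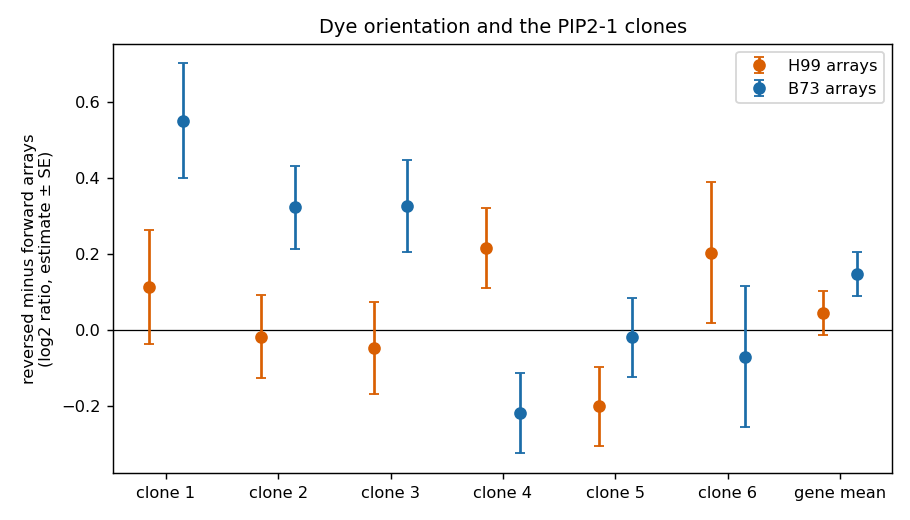
Reversed minus forward arrays (vertical axis, log2 ratio, estimate with its SE from limma) for PIP2-1 clones 1 to 6 and their mean (horizontal axis), orange for H99 and blue for B73 arrays. Clones 1 to 3 have the highest values of the B73 set, at 0.55, 0.32 and 0.33, and clone 4 is positive in the H99 and negative in the B73 set.

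L1 of the gene mean was below 0 in both orientations, as it had to be with every B73 array below 0. On reversed arrays alone L2 was -0.0046 and L1 was -0.20, and on forward arrays alone L2 was -0.049 and L1 was -0.35. L1 of single clones was not always below 0: on reversed B73 arrays clone 3 averaged 0.034, and on forward B73 arrays clone 4 averaged 0.0090. With the reversed arrays of both inbreds turned in sign, as would be right if they had been deposited unturned, L1 of the gene came to -0.13 and a to 0.051.

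**Figure D4:**
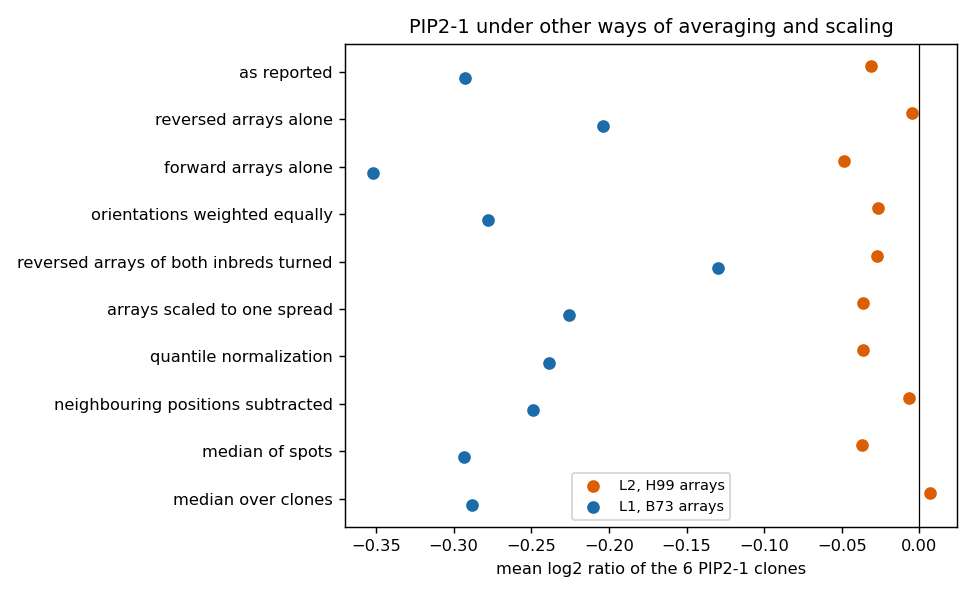
Mean log2 ratio of the 6 PIP2-1 clones (horizontal axis) as reported and under other ways of averaging and scaling (vertical axis), orange for L2 of the H99 arrays and blue for L1 of the B73 arrays. L1 stays between -0.35 and -0.13 and L2 between -0.049 and 0.0066.

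The other aquaporins on the arrays were 5 genes with 11 clones. They comprised PIP1-3 with 7 clones and PIP1-1, NIP2-3, NIP3-1 and SIP2-1 with 1 each; the NIP and SIP proteins are further subfamilies of plant aquaporins. Of these 11 clones, limma called L2 in 0 (2 at an unadjusted p under 0.05). It called L1 in 5, of which 2 were positive and 3 negative, against 41.7% of all clones. It called a in 2, both positive, against 20.3% of all clones. Their median was 0.050 for L2, 0.072 for L1 and -0.011 for a, beside -0.0021, -0.014 and 0.012 over all clones. As deposited, L1 was negative in all 6 PIP2-1 clones and in 5 of the 11 other aquaporin clones; with the reversed B73 arrays turned, it was negative in PIP2-1 clones 1, 2, 3, 5 and 6 and 0.090 in clone 4. This difference was not tested because PIP2-1 was selected on L1.

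PIP1-3, of the group whose proteins pair with PIP2 proteins, was the aquaporin with most clones. Its mean over 7 clones was 0.15 and 0.14 on the reversed and 0.049, 0.030 and 0.0055 on the forward H99 arrays. On the B73 arrays it was 0.0059 and -0.013 reversed and 0.031, 0.040 and 0.065 forward. All 7 clones had a positive L2 and 2 of 7 a negative L1, so that L2 was 0.076 ± 0.067 and L1 was 0.026 ± 0.030 (SD, n = 5 arrays each). L1 was called in 2 of its clones, with opposite signs. Clone 5 had an L2 of 0.020 and an L1 of 0.17 (limma adjusted p = 0.0209 for L1). Clone 7 had an L2 of 0.15 and an L1 of -0.34 (limma adjusted p = 0.000888 for L1 and 0.00308 for a of 0.25).

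NIP2-3 had an L2 of 0.25 and an L1 of -0.23 (limma adjusted p = 0.0250), with a of 0.24 (adjusted p = 0.00797). Its forward arrays averaged 0.40 for H99 and -0.35 for B73, but its reversed arrays 0.038 and -0.054, and the inbreds' arrays overlapped. SIP2-1 had an L2 of -0.0051 and an L1 of -0.17 (limma adjusted p = 0.0394), about the size of PIP2-1 clones 3 and 5. NIP3-1 was on the other side, with an L2 of -0.051 and an L1 of 0.16 (limma adjusted p = 0.0296). PIP1-1 had an L2 of -0.076 and an L1 of -0.0090, neither of which was called. The count of 5 clones called for L1 was 0 with the reversed B73 arrays turned, 1 with arrays scaled to one spread or quantile normalized, and 1, 2, 1 and 3 without B73 array 1, 2, 3 or 4. The share of all clones called under each of these settings was not computed, so whether the changes are particular to aquaporins was not tested.

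**Figure D5:**
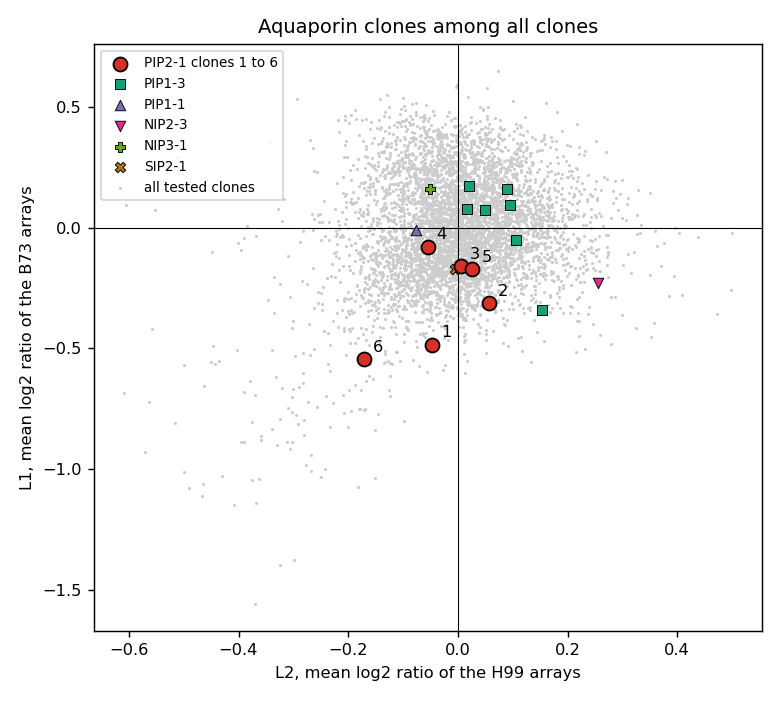
L2, the mean log2 ratio of the H99 arrays (horizontal axis), and L1, that of the B73 arrays (vertical axis), for PIP2-1 clones 1 to 6 (red, numbered), 11 clones of other aquaporins (other symbols) and all tested clones (grey). As deposited, all 6 PIP2-1 clones and 5 of the 11 other aquaporin clones lie below 0 on the vertical axis.

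Beside water channels, named genes of related roles were few. The membrane transport list held ANT1 and ANT2, carriers of adenine nucleotides in mitochondria, and vdac1b, a channel of the outer mitochondrial membrane, with 17 clones. Of these, limma called L2 in 0 (1 at an unadjusted p under 0.05), L1 in 11 (7 positive and 4 negative) and a in 3 (2 positive and 1 negative), against 1.23%, 41.7% and 20.3% of all clones. The 1 clone of prp2 had an L2 of 0.19 and an L1 of -0.33 (limma adjusted p = 0.00400). This gene was listed under cell wall and expansion by its symbol alone, and its function was not checked. The 1 clone of dhn2, a dehydrin of the water deficit list, had an L2 of 0.069 and an L1 of 0.10, with 0 of its contrasts called by limma, also at an unadjusted p under 0.05. In the list of ear meristem and floral genes, 24 clones of 6 genes, limma called L2 in 0 (4 unadjusted), L1 in 13 (9 positive and 4 negative) and a in 7 (1 positive and 6 negative), against the same shares of all clones.

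Likeness to PIP2-1 was measured as Pearson r between gene means over the 10 arrays, among the 109 genes with at least 2 clones. The nearest were MFS18 at 0.91, the sucrose synthase gene sus1 at 0.91, gpc3, for a glyceraldehyde-3-phosphate dehydrogenase, at 0.91, the acidic ribosomal protein gene SRP2B at 0.88 and the alpha-tubulin gene tua3 at 0.87. Their sizes differed: MFS18 had an L2 of 0.089 and an L1 of -0.37, and sus1, with 11 clones, an L2 of 0.011 and an L1 of -0.069. The pattern most opposed was that of the cell cycle kinase gene cdc2, at r of -0.94, with an L2 of 0.020 and an L1 of 0.18. These r values contain the contrast between the inbreds, which holds the L1 that PIP2-1 was chosen for, and are a description. The order of the nearest genes is loose. By root mean square difference, 0 of these 5 were among the nearest 5, where mbd106 and prh1 led, and 1 to 3 of the 5 stayed when reversed arrays were turned, arrays were rescaled or neighbouring positions were subtracted.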

How the data were processed

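The authors deposited log2 ratios per spot (the scale is from the design text), and every array's median lay between -0.001 and 0. For scanner, background correction and normalization: not given in the sources used here. Arrays were used as deposited, missing spots stayed missing, and intensities were not analysed here. Each 3 successive spots were averaged to 1 clone. Names came from the platform annotation, and 208 of 213 genes were found in RefSeq (assembly Zm-B73-REFERENCE-NAM-5.0; only names were taken). The 5357 clones with at least 3 values per inbred and 1 per orientation entered linear models of R 4.3.3's limma 3.58.1 having 1 mean per inbred, or per inbred and orientation, and Benjamini-Hochberg adjustment at 0.05. SDs are between arrays and SEs are limma's, from 1 estimate of the spread per clone or gene mean shared by both inbreds. PIP2-1, the gene lists and the rules for named genes (all aquaporins, each listed gene, and the 5 most and 2 least similar genes by r) were chosen with earlier results of these data known. Alternatives were turned reversed arrays, single orientations, other scaling, subtraction of the median of 3 neighbouring positions on each side, medians, a replicate block, each clone's own variance and leaving out each array.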

Additional observations from a re-analysis of the deposited data

Results flagged for a closer look

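Dixon's test was run on the 5 arrays of each inbred for the PIP2-1 clones and mean, the clones and means of the listed genes and the means of the similar genes. Among 149 such groups 3 had a gap over 0.71 of the group's range, and 0 of the 3 were of PIP2-1. The nominal rate of about 1 in 20 is for independent draws from a single distribution. These groups mix orientations, and clones are counted beside their gene means, so the count is not read against that rate. ANT1 clone 5 read 0.10 on H99 array 2, against -0.11 to -0.051 on the others, and -0.082 on B73 array 2, against -0.0037 to 0.027. In kn1, a homeobox gene of the shoot meristem, clone 3 read -0.98 on B73 array 4, against -0.11 to 0.11 on the others.

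A difference between the H99 and the B73 arrays, tested as a in limma, was called in 13 clones of the listed genes. These were 2 of 11 other aquaporin clones, 3 of 17 membrane transport clones, 7 of 24 ear meristem and floral clones, and the prp2 clone. The share over all clones was 20.3%. PIP2-1 was not tested for a. Clone 7 of PIP1-3 had an a of 0.25 (adjusted p = 0.00308), with an L2 of 0.15 and an L1 of -0.34 and no overlap between the inbreds' arrays. NIP2-3 had an a of 0.24 (adjusted p = 0.00797), though its H99 and B73 arrays overlapped and its forward arrays carried most of the difference. The prp2 clone had an a of 0.26 (adjusted p = 0.00712), with every H99 array above 0 and every B73 array below it. ANT1 clones 1 and 9 had an a of 0.18 and 0.17 (adjusted p = 0.0223 and 0.0284), and ANT2 clone 2 an a of -0.16 (adjusted p = 0.0212). Of the floral MADS-box genes, ZAG3 had an a of -0.21 (adjusted p = 0.00274), ZAG1 of -0.17 (0.0302), zmm24 clone 1 of -0.20 (0.0147), zmm31 clone 1 of -0.21 (0.0307) and zap1 clone 2 of -0.16 (0.0152). The kn1 clones 7 and 10 ran in opposite directions, at 0.18 and -0.15 (adjusted p = 0.0144 and 0.0283). Where a gene had more than 1 clone, the mean of a over its clones was smaller in size. It was 0.025 for PIP1-3, 0.021 for ANT1, -0.059 for ANT2 and 0.027 for kn1. For zap1, zmm24 and zmm31 it was -0.017, -0.11 and -0.14. The cause of the differences called was not tested.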

How the results depend on the processing

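Over the alternatives run, the gene mean of PIP2-1 had an L1 of -0.35 to -0.13, an a of 0.049 to 0.15 and a d of -0.20 to -0.078, and none of the 3 changed sign. That is no support for these values, because PIP2-1 was chosen on L1, which a and d contain. With every B73 array below 0, leaving out an array or taking a single orientation could not turn L1 positive. L2 ran from -0.049 to 0.0066, the positive value being that with the median over clones. The largest moves came from turning reversed arrays in sign, which changes the values by construction: with those of B73 turned, L1 was -0.13, a 0.049 and d -0.080, and with those of both inbreds turned, L1 was -0.13, a 0.051 and d -0.078. On reversed arrays alone d was -0.10. Of 168 values of single clones under alternatives, 161 moved by less than their SD between arrays. This count is no test of stability, because the SD comes from the same arrays and leaving out 1 of 5 cannot move a mean that far. L1 of clone 3 is among the 161, although it was 0.034 on reversed arrays alone against -0.16 as deposited. The count of PIP2-1 clones called for reversed minus forward B73 arrays, 1 as reported, was 4 with the reversed arrays of B73 or of both inbreds turned, 0 with arrays scaled to one spread, 0 after quantile normalization, 0 with each clone's own variance, and 0 to 3 when single arrays were left out. The count for L2 was 0 under all 19 alternatives. The count of other aquaporin clones called for a, 2 as reported, was 0 with reversed arrays of B73 or both inbreds turned and 5 with reversed H99 arrays turned or neighbouring positions subtracted. For L2 it was 2 with arrays scaled or quantile normalized. For these counts the share of all clones called under the same alternative was not computed. The labels do not say whether array numbers pair the inbreds' arrays. Deviations of same-numbered arrays correlated at -0.294 to 0.309, and 1 of 5 H99 arrays correlated best with the B73 array of its number. These values do not settle the pairing. With a replicate block a of PIP2-1 was 0.13 (SE 0.0259, against 0.0258), and the clones called for a over all clones were 828, against 1089. Apart from turned arrays, the cause of these changes was not tested. With 5 labellings of 1 pool per genotype and no intensities, neither variation between plants nor signal over background could be assessed.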
